A study of Homo sapiens with 33 samples.

Results

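The interleukin 1 (IL1) family is described here through 8 of its genes, chosen by name from the 58302 genes of the expression matrix. The cytokine genes are IL1A, IL1B, IL33 and IL18. IL1RN encodes the receptor antagonist. IL1R1, IL1RAP and IL1RL1 encode the receptor for IL1α and IL1β, the accessory chain shared by several family receptors, and the IL33 receptor (ST2). The rule used gene names and no measured value. With a filter of at least 100 counts per 20000000 reads (CP20M) in at least 1 of the 33 libraries, 17803 genes were tested and 7 of the 8 members were among them. IL1RN did not pass, with at most 29 CP20M in any library.

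IL1α and IL1β bind IL1R1, which then recruits IL1RAP and signals through MYD88 and IRAK kinases to NF-κB, while IL1RN occupies the receptor without signalling. IL1β and IL18 are made as precursors that inflammasomes and caspase-1 cleave, whereas IL1α and IL33 are active as nuclear or full-length proteins that damaged cells release. IL1α and IL1β are classical upstream components of the senescence-associated secretory phenotype (SASP), the set of cytokines, chemokines and proteases that senescent cells secrete. RNA levels say nothing of cleavage or release.

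The study treated malignant pleural mesothelioma (MPM) cell lines with palbociclib, an inhibitor of the cyclin-dependent kinases CDK4 and CDK6, and sequenced their RNA. The sensitive MPM lines, which arrest with the drug, gave 2 pairs of libraries (H2052) or 3 pairs each (H2452, H28 and MSTO-211H). MPP89, an MPM line with a mutated RB1, gave 2 pairs, and MeT-5A, mesothelial cells immortalized by SV40, gave 1 pair and 1 untreated library. These last lines are resistant.

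In each pair, cells had received 0.1% DMSO or 1 µM palbociclib in the same experiment, for 9 or 10 days. Each sensitive line also had 1 washout library, from cells kept for 48 h without the drug after 10 days with it, and this was compared with the DMSO and palbociclib libraries of the 10 day experiment. All 33 libraries are from established lines grown in culture, without the immune or stromal cells of a tumour. Replicate numbers mark experiments on the same line, so the tests measure the spread between experiments and not between patients. In such bulk libraries, a change in the RNA of each cell and a change in the share of expressing cells cannot be told apart.

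Differences are given on the log2(CP20M + 10) scale, which understates changes of low genes. A gene was called, up or down, when limma put the change at more than 1.5-fold and its p, adjusted by Benjamini-Hochberg over all genes tested, was under 0.05. For F tests and for the comparison of sensitive with resistant lines the adjusted p alone decided. Library depth could be read for 23 libraries and was 12770000 to 19830000 counted reads, so that 3 reads were worth up to 4.7 CP20M. Values below this are at the limit of detection.

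As a check of the arrest, MKI67, a proliferation marker, fell by 3.10 (SE 0.35) over the sensitive lines (limma adjusted p = 1.74e-05), lower in 11 of 11 pairs. In MPP89 its difference was 0.047 and it was not called. Of 8 mesothelial markers, with summed levels of 28461 to 98916 CP20M, all 8 were above the limit of detection in some library of H2052, H2452 and MPP89. CALB2 and PDPN were below it in every H28 library, PDPN in every MSTO-211H library, and WT1 and KRT19 in every MeT-5A library. KRT18 and VIM were above 1000 CP20M throughout. Of 7 leukocyte markers, which matter because leukocytes also make these cytokines, only CD14 reached 100 CP20M. CD3E was at 0 in every library and PTPRC, which encodes the pan-leukocyte antigen CD45, at no more than 42.

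A pair of H2452 and a pair of MSTO-211H stood apart. In H2452 replicate 2, CD14 was at 361 CP20M with DMSO and 1130 with palbociclib, against 133 to 349 in the other pairs of the line. The same pair had 1471 and 1443 CP20M of IL1R1, and the other pairs at most 649. In MSTO-211H replicate 2, IL1A and IL1B were lower with palbociclib than with DMSO, unlike in the other pairs of that line. Values without these pairs are given beside the calls they end or add, or near the end for the F test among lines.

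In control libraries, the lines differed in the members they expressed (plot of the levels in each library). IL33 was highest in H2052, at 3314 ± 1660 CP20M (SD, n = 2). MPP89 followed at 93.0 ± 9.90 (n = 2), and the means of the other 4 lines were between 1.33 and 7.50. MSTO-211H had the highest IL1A, at 607 ± 375 (n = 3), and was the line with IL1RL1 above the limit of detection, at 31.7 ± 15.5. IL1B was highest in H2052, at 1765 ± 832, and in MSTO-211H, at 765 ± 519, and these ranges overlapped. H2452 had 71.3 ± 9.29 CP20M of IL1B, and H28 had 8.33 ± 6.11.

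IL18 was highest in H2452, at 1917 ± 616, then in H2052, at 1138 ± 313, with overlapping ranges. It was lowest in MSTO-211H, at 108 ± 73.8. IL1RAP went from 1340 ± 386 in MeT-5A (n = 2, 1 of them untreated) through 813 ± 19.3 in H2452 to 92.7 ± 47.8 in H28, and in its order of 6 lines no range overlapped that of the next. IL1R1 went from 690 ± 677 in H2452, where 1 library of 1471 raised the mean, and 672 ± 182 in MPP89 down to 21.7 ± 10.3 in H28.

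H28 had the lowest mean of IL1A, IL1B, IL1R1 and IL1RAP among the 6 lines. IL1R1 and IL1RAP, the 2 chains of the IL1 receptor, varied together over the 16 groups of line and condition, with a Pearson r of 0.86. For IL1A and IL1B, r was 0.84. These are descriptions over groups that share lines. Levels differed among the lines for all 7 members tested (limma F test, largest adjusted p = 1.95e-05), but so did 96.3% of all genes tested.

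**Figure D1:**
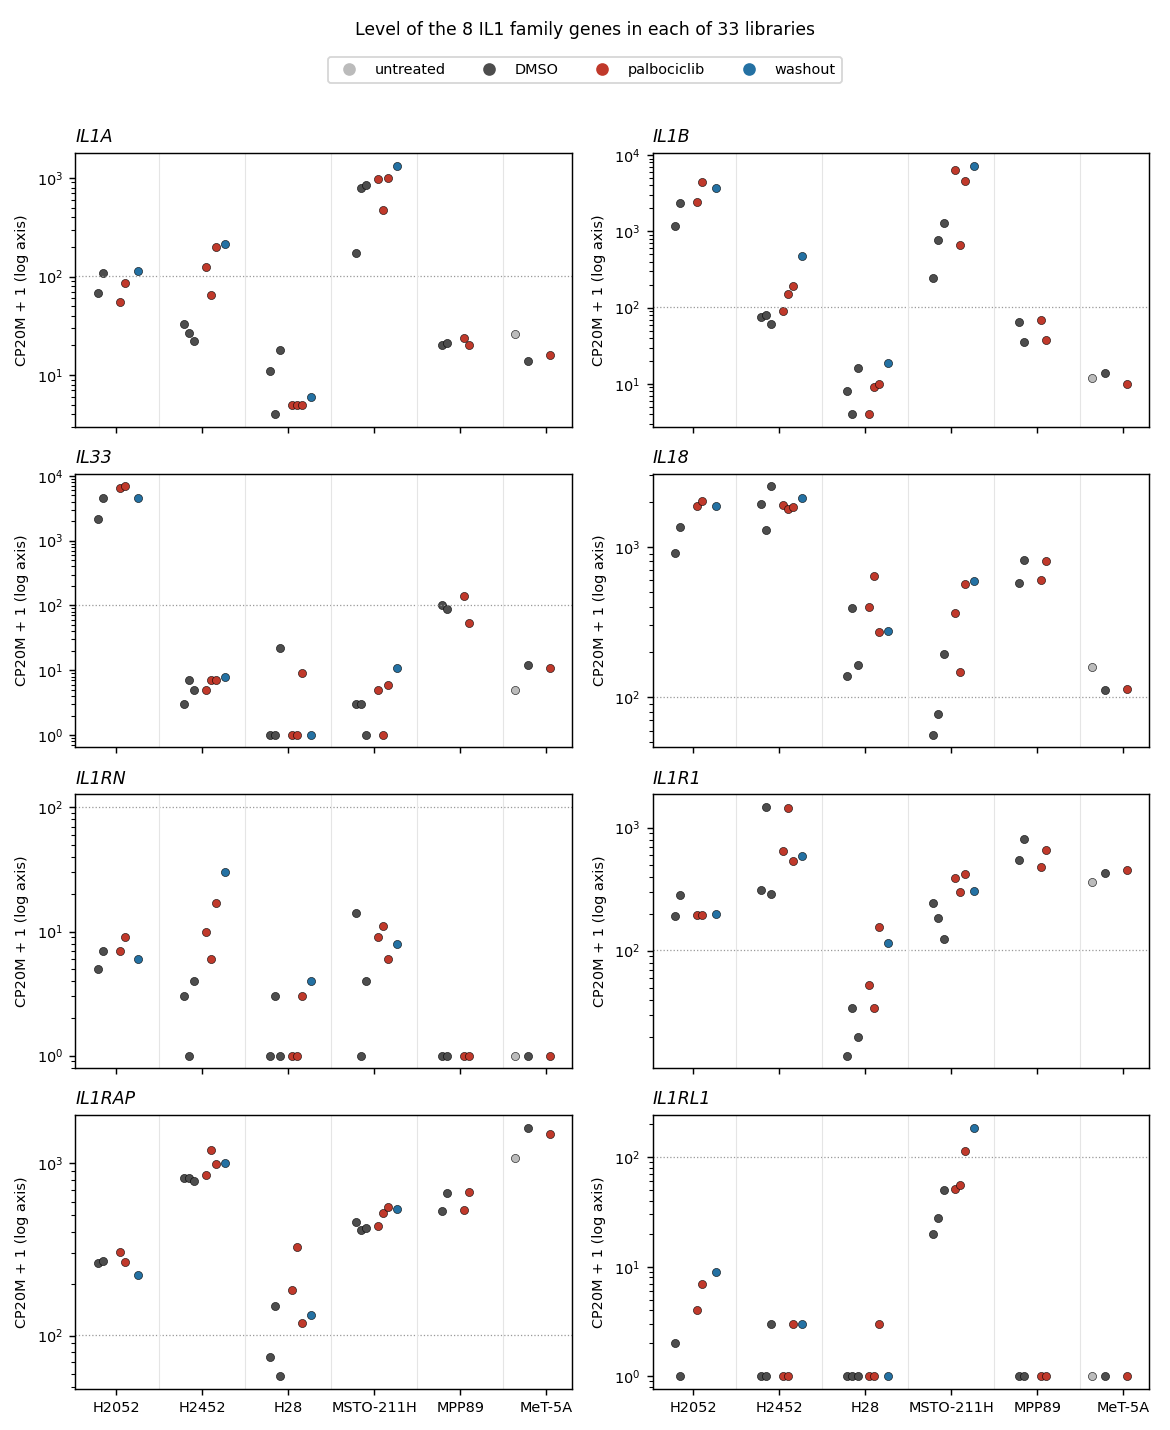
Level of each of the 8 genes in every library, as CP20M + 1 on a log axis, by cell line, with DMSO, palbociclib, washout and untreated libraries in different colours. The dotted line marks the 100 CP20M of the filter. IL33 is above it in all H2052 libraries, IL1RL1 in 2 MSTO-211H libraries, and IL1RN in none.

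IL1A and IL1B lie next to each other on chromosome 2 (GRCh38, GENCODE 44), both on the minus strand. IL1A (ENSG00000115008) spans chr2:112773925-112784493 and IL1B (ENSG00000125538) chr2:112829751-112836816, with 45.3 kb between them. IL1RN (ENSG00000136689, chr2:113099315-113134016) lies 262.5 kb beyond IL1B on the plus strand. The 250 bases before the start site of the first 2 genes are shown because both rose in H2452 and their levels varied together, although each has its own promoter. The sequences are from RefSeq (GRCh38.p14), 5′ to 3′ on the minus strand. Capitals mark matches, on either strand, to the motifs TGACTCA of AP-1, TTGCNNAA of C/EBP and TATAAA of the core promoter, and the NF-κB motif was searched too. No matches overlap here.
IL1A, chr2:112784494-112784743: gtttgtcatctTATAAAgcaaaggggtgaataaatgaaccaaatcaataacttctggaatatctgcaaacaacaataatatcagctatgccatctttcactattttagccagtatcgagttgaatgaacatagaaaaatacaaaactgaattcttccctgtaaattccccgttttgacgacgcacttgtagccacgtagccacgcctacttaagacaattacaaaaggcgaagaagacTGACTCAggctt
IL1B, chr2:112836780-112837029: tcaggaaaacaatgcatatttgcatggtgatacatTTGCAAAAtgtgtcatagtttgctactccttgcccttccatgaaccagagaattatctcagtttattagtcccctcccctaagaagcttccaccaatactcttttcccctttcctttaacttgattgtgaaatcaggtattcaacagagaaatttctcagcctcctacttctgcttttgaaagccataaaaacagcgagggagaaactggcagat
The IL1A window holds TGACTCA at -12 and TATAAA at -239 from the start site, and the IL1B window holds TTGCNNAA at -215. Of the 35116 RefSeq windows of this length, 4.20% hold TGACTCA, 9.05% TTGCNNAA, 10.7% TATAAA and 9.96% the NF-κB motif. Of the other members, the windows of IL1RL1 and IL1RN hold TATAAA, and those of IL33, IL1R1 and IL1RAP hold none of these letters. A window was found for 7 of the 8 members, without IL18.

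Over the sensitive lines, 3 of the 7 members tested were called up with palbociclib, IL1B, IL18 and IL1R1, and none down. Of all genes tested, 5.58% were called up and 9.37% down. The units of this test were the 11 pairs, so experiments on the same line count separately. With the means of the 4 lines as units, limma called none of the 3 (adjusted p = 0.0898, 0.0642 and 0.118). IL1RAP passed the adjusted p but not the fold, and IL1A and IL33 passed neither. IL1RL1 was tested only because a palbociclib and a washout library of MSTO-211H reached 100 CP20M, so its p is not read as a test here or below. By line, 2 or 3 members were called in each of the 4, all of them up, and no member was called in all 4. Among these, IL1A and IL1B in H2452 and IL1RL1 in MSTO-211H entered the fit of the line only through palbociclib libraries.

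IL1A was raised in H2452. Its DMSO libraries had 32, 26 and 21 CP20M and the palbociclib libraries of the same experiments 124, 64 and 198, so that the groups did not overlap. The difference was 1.82 (SE 0.33), a 3.53-fold rise (limma adjusted p = 0.00653). It was called in all 11 alternatives, most of them with the same filter on level. In H2452, 3 of 5 members tested were called up, beside 7.30% of all genes, and none was called down, beside 12.6%. IL1A and IL1B entered that fit only through palbociclib libraries, the DMSO libraries being under 100 CP20M. Nothing is therefore read from the count, and their p in that fit is not read as a test. With no filter on level, IL1A was called (adjusted p = 0.0473) and IL1B was not (adjusted p = 0.121).

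MSTO-211H, the line with most IL1A, had 174, 799 and 847 CP20M with DMSO and 982, 467 and 1010 with palbociclib. The difference of 0.64 (SE 0.56) was not called, and without replicate 1 it was below 0. In H2052, IL1A went from 67 and 107 to 54 and 85. In H28 it was at 17 CP20M or less throughout. Over the 11 sensitive pairs it was higher in 6 and lower in 5, with a mean of 0.50 (SE 0.34, adjusted p = 0.242) that was -0.00035 without H2452.

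IL1B, whose product is the main secreted IL1, rose over the sensitive lines by 0.96 (SE 0.38), or 1.94-fold, with a limma adjusted p of 0.0487 and 8 of 11 pairs higher. In H2052 it went from 1176 and 2353 CP20M with DMSO to 2442 and 4488. Both pairs rose by similar amounts, although replicate 2 began at the level that replicate 1 reached. The difference was 0.99 (SE 0.11, adjusted p = 4.25e-05). Of 10 alternatives, 5 ended the call, including no block (adjusted p = 0.0895), no filter (0.0550), all lines in a single fit (0.303) and leaving out either pair (0.583 and 0.534). IL1B was called up with IL33 and IL18, 3 of 6 members tested in H2052, where 7.47% of all genes were called up and 22.9% down. No member was called down there.

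In H2452, IL1B went from 74, 79 and 61 to 89, 148 and 194, with no overlap, by 0.86 (SE 0.25, adjusted p = 0.0315). That p is not read as a test, since only palbociclib libraries let IL1B into the fit. With the filter over all libraries IL1B was not called (limma adjusted p = 0.0895). Without replicate 3 the difference was 0.53 and not called (adjusted p = 0.137), and the call was lost in 5 of 11 alternatives, with no block (0.0694) and a single fit (0.282) among them. In MSTO-211H the DMSO libraries had 241, 775 and 1279 CP20M and the palbociclib libraries 6350, 662 and 4599. Replicate 1 had the highest palbociclib value of all lines and replicate 2 did not rise, so the difference of 2.09 (SE 0.82) was not called (adjusted p = 0.0989). Without replicate 2 it was 3.25 (adjusted p = 0.0421). H28 had 15 CP20M or less in each of its 6 libraries and IL1B could not be tested there.

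The call of IL1B over the sensitive lines was fragile. It was lost in 15 of 23 alternatives, with adjusted p from 0.0301 to 0.130, while the difference stayed above 0 in all 23. Without MSTO-211H the difference was 0.53 (adjusted p = 0.0651), and it was 0.59 without MSTO-211H replicate 1 alone, where it remained called. Leaving out H2052 or H2452, any pair of these lines, H28 replicate 2 or MSTO-211H replicate 3 also ended the call, with values from 0.87 to 1.03.

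IL33, a nuclear cytokine of epithelial and endothelial barriers, rose in H2052 (ENSG00000137033, chr9:6215786-6257983). The line had 2140 and 4487 CP20M with DMSO and 6477 and 6910 with palbociclib. All 4 values were high and the groups did not overlap. The difference was 1.11 (SE 0.18, limma adjusted p = 0.000454), and the pairs differed, at 1.59 and 0.62. The call was lost in 3 of 10 alternatives, with adjusted p of 0.116 with no filter, 0.0742 with the filter over all libraries and 0.277 without replicate 1. In MPP89 it was at 100 and 86 with DMSO and at 138 and 53 with palbociclib, with no direction in common. The other lines had at most 21 CP20M of IL33 in any DMSO or palbociclib library, so the mean over the sensitive lines, 0.22 (SE 0.17), was not called.

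IL18 (ENSG00000150782, chr11:112143253-112164096) encodes an inducer of interferon-γ and was the member with the smallest adjusted p over the sensitive lines. It rose by 0.85 (SE 0.21), or 1.80-fold (adjusted p = 0.00481), and was higher in 9 of 11 pairs. MSTO-211H, which had least of it, went from 55, 76 and 192 CP20M to 362, 146 and 561, by 1.63 (SE 0.32, adjusted p = 0.0165), a call lost in 3 of 11 alternatives (adjusted p up to 0.0756). H28 went from 138, 393 and 162 to 397, 642 and 271. There the groups overlapped, yet each pair rose, by 0.95 on average (SE 0.18, adjusted p = 0.00936). Of 11 alternatives, 3 ended this call, and the value was 0.70 without replicate 1 (adjusted p = 0.0558).

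In H2052, IL18 went from 916 and 1359 to 1858 and 2004, by 0.78 (SE 0.13, adjusted p = 0.000565), a call that 5 of 10 alternatives ended, including the removal of either pair (0.56 and 1.01, adjusted p = 0.411 and 0.140). H2452, with the highest control level, had 1923, 1298 and 2529 with DMSO and 1899, 1792 and 1844 with palbociclib. Its difference was -0.0031 (SE 0.16), and 0.20, also not called, when libraries were scaled by median of ratios. The responses of the 4 lines differed (limma F test, adjusted p = 0.0322), as they did for 37.1% of all genes tested. Without MSTO-211H the mean of IL18 was 0.55, just under the fold required (adjusted p = 0.0275). A gene of the opposite strand overlaps IL18, and since the strand setting of the counting was not given, its reads could be part of these values.

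IL1RN, the antagonist, was near the limit of detection. H2452 had 2, 0 and 3 CP20M with DMSO and 9, 5 and 16 with palbociclib, and 29 after washout, the highest value of the series. H2052 had 4 and 6 with DMSO and 6 and 8 with palbociclib, and all libraries of MPP89 and MeT-5A had 0. Levels this low allow no statement of fold.

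IL1R1 (ENSG00000115594, chr2:102064544-102179874), the signalling receptor, rose over the sensitive lines by 0.76 (SE 0.24), or 1.69-fold (limma adjusted p = 0.0171), with 8 pairs higher and 2 lower. In MSTO-211H it went from 245, 184 and 123 CP20M to 390, 300 and 422. The groups did not overlap, and the difference was 1.01 (SE 0.24, adjusted p = 0.0278). The call was lost in 4 of 11 alternatives, at 1.17 without replicate 2 (adjusted p = 0.0577), 0.66 without replicate 3 (0.114), and with no filter or the filter over all libraries (0.0993 and 0.0776). MSTO-211H had 3 of 6 members tested called up, IL1RL1 among them, beside 9.29% of all genes, and none called down, beside 13.8%. Since IL1RL1 entered that fit only through a palbociclib library, nothing is read from the count.

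In H2452, IL1R1 went from 308, 1471 and 290 to 649, 1443 and 539. Replicate 2 was high in both libraries and did not rise, while both other pairs did. The difference was 0.63 (SE 0.20, adjusted p = 0.0426). It was 0.96 and called without replicate 2, and 0.42 and 0.51 and not called without replicates 1 and 3 (adjusted p = 0.193 and 0.170). The call was lost in 8 of 11 alternatives. That pair also had the most CD14, and the part of other cell types in its values was not tested. In H28, the line with least IL1R1, the values went from 13, 33 and 19 to 52, 33 and 155. The difference was 1.31 (SE 0.46, limma adjusted p = 0.0625, not called), and 1.97 without replicate 2. IL1R1 entered the H28 fit only through its palbociclib libraries, so its p in that line is not read as a test.

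In H2052, IL1R1 was at 189 and 284 CP20M with DMSO and at 194 and 193 with palbociclib. The difference was -0.25 (SE 0.19), or 0.053 with median-of-ratios scaling, and was not called. The F test among the 4 lines did not pass for this gene (adjusted p = 0.194). Leaving out H2452, H28 or MSTO-211H ended the call over the sensitive lines, at 0.81, 0.55 and 0.67 (adjusted p = 0.0564, 0.0603 and 0.0921). The antisense gene IL1R1-AS1 overlaps IL1R1 and its reads could not be separated.

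IL1RAP (ENSG00000196083, chr3:190514051-190659750) moved most in H28. The line had 74, 147 and 57 CP20M with DMSO and 182, 328 and 118 with palbociclib. Every pair rose, by 0.93 to 1.19, although the groups overlapped. The difference was 1.08 (SE 0.15), or 2.11-fold (limma adjusted p = 0.00395), and was not called without the block (adjusted p = 0.118). H28 had 2 of 3 members tested called up, IL1RAP and IL18, where 8.75% of all genes were called up and 10.9% down.

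The other sensitive lines had differences of IL1RAP between 0.09 and 0.30, none called. The F test among lines gave an adjusted p of 0.00712. Over the sensitive lines IL1RAP differed by 0.45 (SE 0.13, adjusted p = 0.00936), below the fold required. With median-of-ratios scaling the value was 0.64 and called.

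IL1RL1 (ENSG00000115602, chr2:102311502-102352037) was measurable in MSTO-211H. It had 19, 27 and 49 CP20M with DMSO and 50, 55 and 112 with palbociclib, and the groups did not overlap. The difference was 0.97 (SE 0.29), or 1.96-fold. It counts as called (limma adjusted p = 0.0472), but the palbociclib library of 112 CP20M alone let it into the fit of the line, and with no filter it was not called (adjusted p = 0.0767). The call was lost in 5 of 10 alternatives, at 0.93 without replicate 1 (adjusted p = 0.0828) and 1.05 without replicate 2 (0.0869). The other lines had at most 6 CP20M in any DMSO or palbociclib library. IL18R1 lies on the same strand and overlaps IL1RL1, and reads could not be assigned with certainty between them. IL18R1 was at 129 to 144 CP20M with DMSO and 105 to 118 with palbociclib in MSTO-211H.

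**Figure D2:**
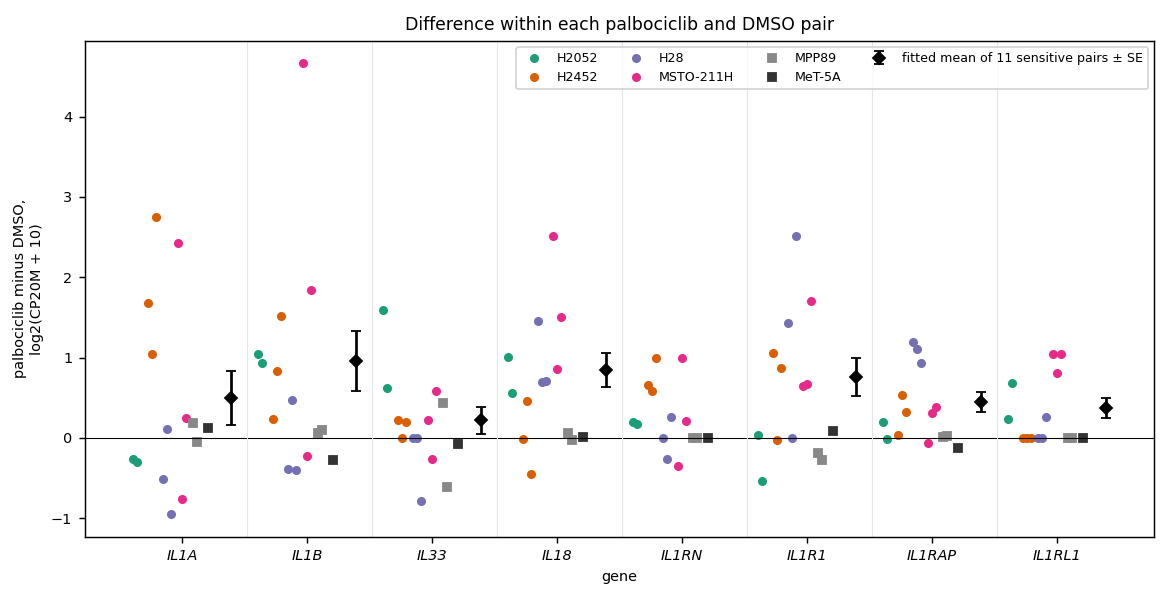
Palbociclib minus DMSO on the log2(CP20M + 10) scale within each pair, with circles for the sensitive lines, squares for the resistant lines, and a diamond for the fitted mean of the 11 sensitive pairs with its SE (none for IL1RN, which was not tested). The MSTO-211H pairs of IL1B spread from -0.22 to 4.66, while IL1RAP has its 3 highest values in H28.

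In MPP89, the resistant line with 2 pairs, none of the 4 members tested was called, with 0.0203% of all genes called up and 0.00676% down. IL1R1, the member of the 4 with an unadjusted p under 0.05, had 543 and 800 CP20M with DMSO and 477 and 657 with palbociclib (-0.23, SE 0.08, adjusted p = 0.190). IL18 went from 577 and 821 to 601 and 808, and IL1RAP from 527 and 674 to 533 and 684. The IL18 and IL1RAP values differed less within pairs than between them. In MeT-5A, with 1 pair and no test, IL1RAP was at 1613 and 1481, IL1R1 at 426 and 451, IL18 at 111 and 112, and IL1B at 13 and 9.

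The difference in response between sensitive and resistant lines was tested directly. limma called none of the 7 members, and 0 had an unadjusted p under 0.05, beside 1.56% of all genes called higher and 7.81% lower. The differences were 1.00 (SE 0.75) for IL1B, 0.89 (SE 0.47) for IL1R1, 0.83 (SE 0.42) for IL18 and 0.48 (SE 0.25) for IL1RAP, with adjusted p from 0.220 to 0.420. The errors of these 4 differences are large. Only 3 resistant pairs were available, and the spread among the sensitive pairs enters the same errors. A difference in response was thus neither found nor bounded near 0. MKI67 was called in the same test, at -3.18 (adjusted p = 0.0125).

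Of the 14 other genes of the family, 6 passed the filter and limma called none over the sensitive lines. An unadjusted p under 0.05 was found for 3 of the 6, beside 9819 of all 17803 genes tested. The median difference of the 6 was -0.20, beside -0.11 for all genes tested. IL18BP, which encodes the secreted trap of IL18, was lower in 11 of 11 pairs by 0.50 (limma adjusted p = 0.000133), and SIGIRR, an inhibitory receptor of the family, differed by -0.42 (adjusted p = 0.00392). Both missed the fold required. IL1R2, the decoy receptor, had at most 15 CP20M in any library.

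IL36RN and IL36B, singled out after their values were seen, stood out in H2452. IL36RN encodes the antagonist of the IL36 receptor and IL36B a ligand of it. IL36RN had 18, 0 and 9 CP20M with DMSO, 481, 71 and 957 with palbociclib and 667 after washout, and was at 0 in every library of the other 5 lines. IL36B had 10, 2 and 8, then 169, 48 and 495, and 690 after washout. The differences in H2452 were 4.27 and 3.42, given with no test, since both genes passed the filter only through treated libraries. The IL36 receptor gene IL1RL2 had at most 10 CP20M in any library.

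None of the 16 genes of receptor-proximal signalling (MYD88, the IRAK kinases, TRAF6, the TAB and IKK genes and their regulators) was called by limma over the sensitive lines. All 16 passed the filter, 10 had an unadjusted p under 0.05 and 7 an adjusted p under it. Of all 17803 genes tested, 9819 had an unadjusted p under 0.05. The median of the 16 was -0.13, beside -0.11 for all genes tested. TAB1, an activator of the kinase TAK1, was lower in 11 of 11 pairs by 0.55 (adjusted p = 0.00011) and TOLLIP, an adaptor that restrains IRAK1, was higher in 11 of 11 by 0.42 (adjusted p = 0.000111), both below the fold required. For the genes of the 4 pathway lists, calls with median-of-ratios scaling were not examined. That scaling moved the median of all genes tested from -0.11 to 0.058, so list calls near the fold required could depend on it.

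Of 13 inflammasome and processing genes, 12 passed the filter and limma called none. An unadjusted p under 0.05 was found for 4 of the 12, beside 9819 of all 17803 genes tested. The median was -0.013, beside -0.11 for all genes tested. GSDMD, the pore-forming protein through which IL1β leaves the cell, differed by -0.56 (adjusted p = 2.63e-05, lower in 11 of 11 pairs). In H2052, where IL1B and IL18 rose, 3 of 11 tested genes of this list were called down, a share near the 22.9% of all genes called down in that line. They were CASP1, at -1.69 (adjusted p = 5.94e-05), the ATP receptor gene P2RX7, at -1.73, and the inflammasome adaptor gene PYCARD, at -0.84. They were named after their values were seen.

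Genes known to respond to IL1 moved more. Of 20, 19 passed the filter, 10 were called up over the sensitive lines and none down, beside 5.58% and 9.37% of all genes. CCL20 and CSF2, both among the 10, passed the filter only through treated libraries. The median of the list was 0.99, beside -0.11 for all genes. Many of its genes also respond to other NF-κB signals, and the list holds SASP genes whose response in these data was known when it was made, so it is not independent evidence of its direction. By size, CCL2, a monocyte chemokine, rose by 1.72 (SE 0.53, adjusted p = 0.016), in 8 of 11 pairs. In H2452 it differed by -0.49 (adjusted p = 0.0123). ICAM1, an adhesion molecule for leukocytes, rose by 1.68 (SE 0.21, adjusted p = 3.33e-05) and in 11 of 11 pairs. IL6 rose by 1.37 (SE 0.27, adjusted p = 0.00117), also in 11 of 11.

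CCL20, a chemokine for CCR6-bearing cells, was higher in 10 of 11 pairs, by 1.25 on average (SE 0.25). No p is given for CCL20, since it passed the filter only through treated libraries. ICAM1 was at 1638 and 2023 CP20M with DMSO and 12017 and 14114 with palbociclib in H2052. In H28, where IL1A and IL1B were near 0, it was at 3, 20 and 20 and then 23, 33 and 82. CCL20 in H28 was at 9, 9 and 12 with DMSO and 48, 27 and 113 with palbociclib. NFKBIA, the NF-κB inhibitor that IL1 induces, differed by -0.52 (adjusted p = 0.00395) and was not called.

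By line, 9 of 16 tested genes of the response list were called up and 2 down in H2052, where 7.47% of all genes were called up and 22.9% down. In H2452, 5 of 13 were called up and 2 down, beside 7.30% and 12.6%. In H28, 5 of 10 were called up and none down, beside 8.75% and 10.9%. In MSTO-211H, 5 of 16 were called up and none down, beside 9.29% and 13.8%, and in MPP89 none of 9 was called. Of the genes tested, 3 in H2052, 3 in H28 and 2 in MSTO-211H passed the filter only through palbociclib libraries, as did CSF2 and CCL20 over all libraries through treated ones. In H2052 they were CXCL8, CCL2 and CCL20, all called up, so these counts are not read as tests. The genes called down were CXCL2 and CXCL3 in H2052 and BIRC3 and NFKBIA in H2452.

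In MSTO-211H replicate 2, where IL1B did not rise, genes of the list went both ways. CXCL8 went from 863 to 261 CP20M, CXCL2 from 862 to 495, NFKBIA from 2903 to 1335 and SOD2 from 43140 to 32164. CXCL3, NFKBIZ, ZC3H12A, LIF and BIRC3 were lower too, and the rest of the list was higher, some of it near the limit of detection. IL6 went from 14 to 209, CCL2 from 13 to 404, ICAM1 from 1677 to 2594, TNFAIP3 from 589 to 956 and CXCL1 from 130 to 204. ICAM1 was the gene of this list called in the test of sensitive against resistant lines, at 1.70 (SE 0.42, adjusted p = 0.0202).

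**Figure D3:**
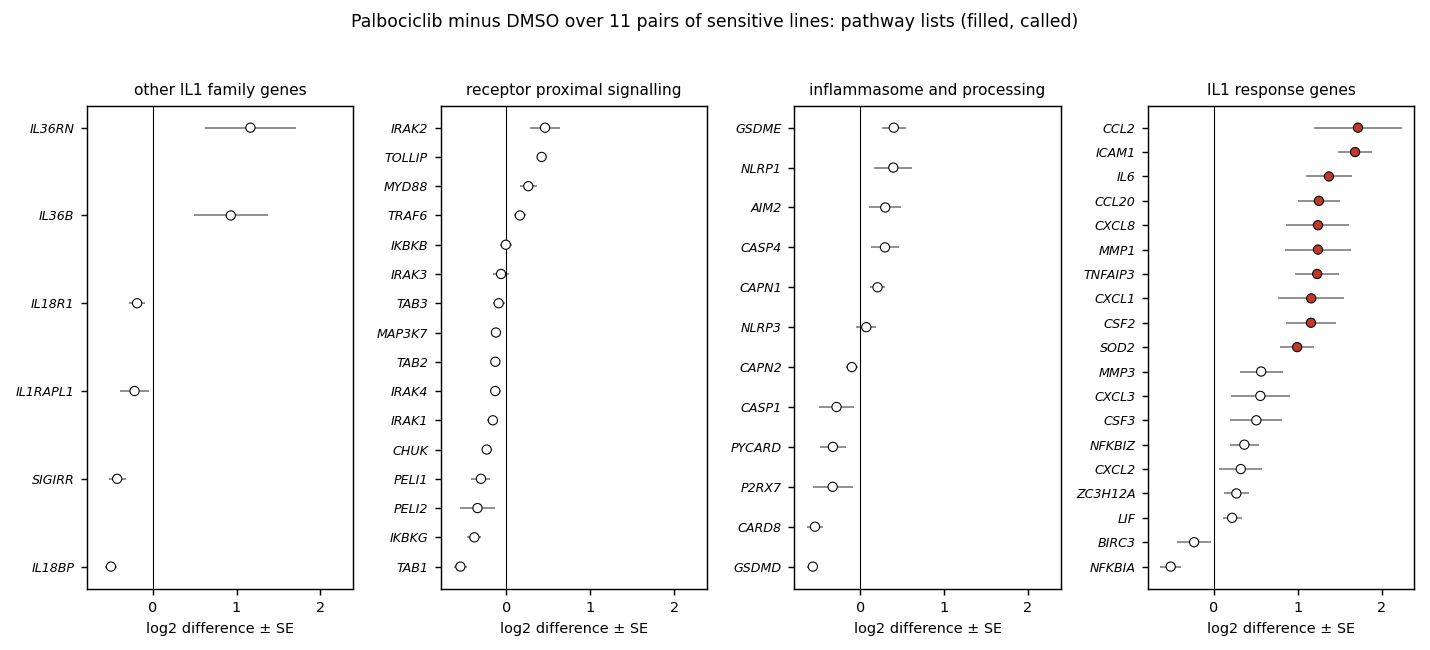
Fitted log2 difference, palbociclib minus DMSO, with its SE, over the 11 pairs of sensitive lines for the genes of 4 pathway lists that passed the filter. Filled points were called. The 10 filled points are all in the list of IL1 response genes.

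After washout, MKI67 rose again, by 2.99 against palbociclib (SE 0.55, limma adjusted p = 0.0348). limma called none of the 7 members against palbociclib, and 0 had an unadjusted p under 0.05, with 1.40% of all genes called up and 0% down. With 1 washout library per line, the 4 lines were the replicates, and the washout and palbociclib comparisons share libraries.

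Against DMSO, IL1B was called up after washout, at 1.52 (SE 0.41), or 2.87-fold (adjusted p = 0.0433), beside 2.81% of all genes called up and 2.95% down. It was above DMSO in 4 of 4 lines, though in H28 only by 0.16, at low values of 15 and 18 CP20M. In MSTO-211H it went from 1279 CP20M with DMSO to 4599 with palbociclib and 7276 after washout, and in H2452 from 61 to 194 to 477. In H2052 it went from 2353 to 4488 to 3677, and in H28 from 15 to 9 to 18. Leaving out H2052, H2452 or MSTO-211H ended the call, with values of 1.81, 1.10 and 1.19 (adjusted p = 0.0982, 0.174 and 0.209).

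IL1A after washout was at 1334 CP20M in MSTO-211H and 211 in H2452, against 847 and 21 with DMSO. IL1A was above the palbociclib library in 4 of 4 lines, by 0.24 on average (SE 0.53, not called). In H28 these values were 4 and 5 CP20M, near the limit of detection, and in H2452 they were 198 and 211. IL1RL1 in MSTO-211H went from 49 to 112 to 185. IL33 in H2052 went from 4487 to 6910 and back to 4552, near its DMSO value. IL18 was at 1881, 2118, 273 and 588 in H2052, H2452, H28 and MSTO-211H, each within 0.20 of the palbociclib library on the log2 scale.

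IL1R1 after washout was above DMSO in 3 of 4 lines, with H2052 again the exception, at 198 against 284. The mean was 0.96 (SE 0.40, adjusted p = 0.149) and was not called. Of the IL1 response genes, 5 were called up against DMSO after washout and none against palbociclib. They were CXCL8, ICAM1, MMP1, TNFAIP3 and CCL20, the last tested only through treated libraries.

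**Figure D4:**
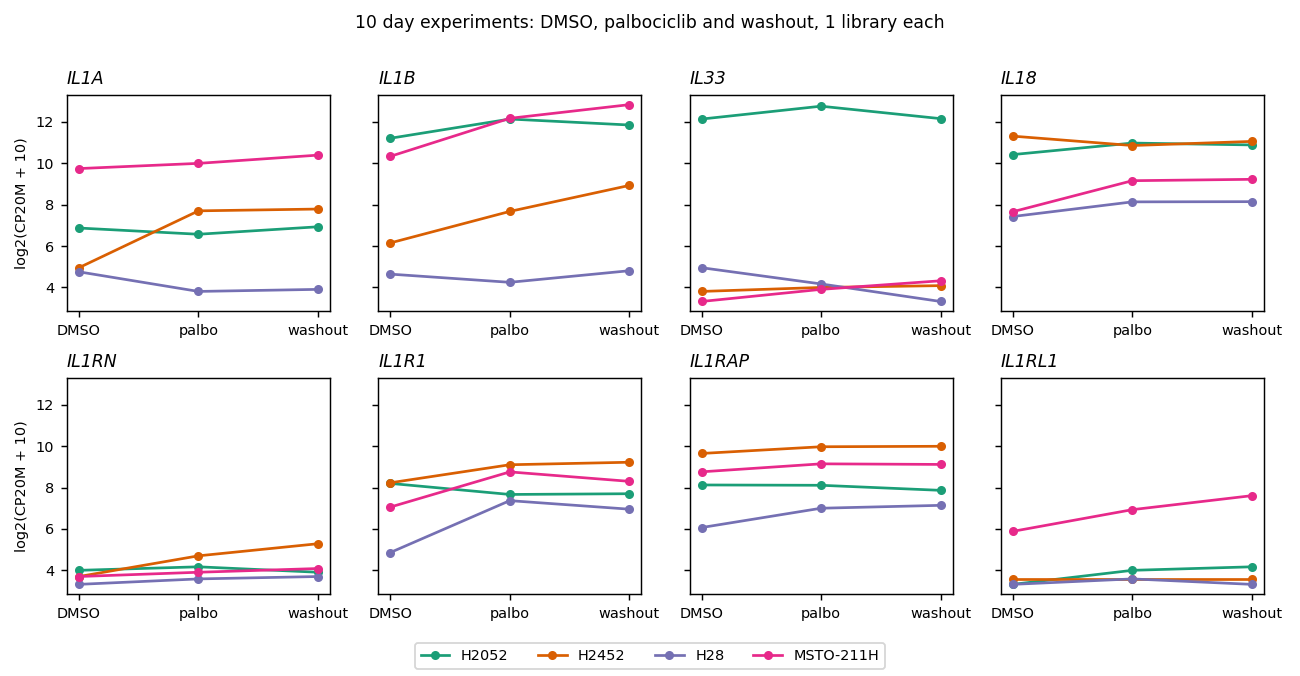
log2(CP20M + 10) of each gene in the DMSO, palbociclib and washout libraries of the 10 day experiment, 1 library each, joined by line. IL1B in MSTO-211H and H2452 is higher after washout than with palbociclib, and IL33 in H2052 is back at its DMSO level.

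The genes whose levels most resembled those of the members over the 16 groups of line and condition are given as a description, since groups of a line share its genome. They were CXCL2 (Pearson r = 0.97) and LINC01204 (0.97) for IL1A, NTN4 (0.98) and AC010457.1 (0.97) for IL1B, FAM83A (0.99) and SYT9 (0.99) for IL33, and BAG3 (0.95) and LAMP1 (0.94) for IL18. For the receptors they were SPARC (0.95) and CLMAT3 (0.94) for IL1R1, RPA2 (0.95) and C19orf81 (0.95) for IL1RAP, and MUSK (0.97) and CSF3 (0.96) for IL1RL1. CXCL2 and CSF3 are also in the list of IL1 response genes.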

How the data were processed

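RNA-seq was performed on 33 libraries of 6 established cell lines. Per the study's methods, the authors prepared directional libraries, mapped reads with STAR to GRCh38 and counted them per Ensembl gene with HTSeq. The submitters' processing notes add trimming with Trimmomatic 0.36 and the versions STAR 2.5.3 and HTSeq 0.9.1. The authors scaled each library to CP20M and called differential genes with DESeq2. The authors' deposited score is thus a scaled value rounded up to a whole number, and no count model was used on it here. Each column adds up to about 20000000, and depth was read from the low whole numbers that a library skips. It covers counting error only.

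limma 3.58.1 (eBayes with trend) in R 4.3.3 was run on log2(CP20M + 10). Fits within a line used genes with at least 100 CP20M in 1 or more of its DMSO or palbociclib libraries. The experiment was a block, since the methods state that treated and control cells were paired. Pairs were taken from the replicate numbers. Deviations from group means correlated within pairs, with r from 0.18 to 0.78 over genes, which are not independent replicates. Of 13 pairs, 12 matched their own number best, and MSTO-211H replicate 3 did not (r = 0.22). In H2052 and MPP89, with 2 pairs each, both pairs share 1 value of r. In the washout fit the line was the block. MeT-5A, with 1 pair, entered only the fit of both classes. Replicate libraries had equal values at no more than 4.33% of tested genes, so none was counted as a duplicate.

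All 8 members are named. Of each pathway list, up to 4 genes called in each direction over the sensitive lines are named by size, as well as MKI67 and the 2 genes most like each member. Other list genes were picked for the text with their values known. The members and lists were chosen with earlier results of these data known. The alternatives were no block, pseudocounts of 1 and 50, other filters, median-of-ratios scaling, eBayes without trend, 1 fit for all lines, the means of lines as units, and leaving out pairs and lines. Scripts were tested on simulated data. Positions are from GENCODE 44, another release than the authors'. Figures used matplotlib 3.10.9.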

Additional observations from a re-analysis of the deposited data

Results flagged for a closer look

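The response to palbociclib differed among the 4 sensitive lines for 3 members by limma's F test of the line by treatment terms. The adjusted p was 0.00705 for IL1RL1, 0.00712 for IL1RAP and 0.0322 for IL18. IL1RL1 differed by 0.97 in MSTO-211H and was near 0 CP20M in the other lines. It passed the filter only through treated MSTO-211H libraries, so its p is not a test of a difference among lines. IL1RAP differed by 1.08 in H28 and by 0.09 to 0.30 in the other lines. IL18 differed by 1.63 in MSTO-211H and by -0.0031 in H2452. Of all genes tested, 37.1% passed the same test, and without the replicate block none of the 3 members did. No group of DMSO or palbociclib libraries had more than 3 samples, so single outlying libraries were not tested for.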

How the results depend on the processing

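Counts of members called are given first. Over the sensitive lines, 3 were called, and 1 with a pseudocount of 50, 0 with line means as units, 1 without H2452 and 0 without MSTO-211H. In H2052, 3 were called, and 0 with no filter, 1 with the filter over all libraries (IL1B) and 1 with all lines in a single fit (IL33). Leaving out a pair leaves a lone pair in H2052, so no count is given for it. In H2452, 3 were called, and 1 with the filter over all libraries or a single fit and 1 to 3 leaving out a pair. In H28, 2 were called, and 1 with no filter and 1 to 3 leaving out a pair. The 3 include IL1R1, whose p in H28 is not read as a test. In MSTO-211H, 3 were called, and 0 with no filter and 1 to 2 leaving out a pair. With the filter over all libraries 1 was called, IL1RL1, whose p is not read as a test. The F test among lines called 3, and 2 to 6 leaving out a pair, 6 without MSTO-211H replicate 2. That removal added IL1A, IL1B and IL33 (limma F test, adjusted p = 0.0234, 0.0176 and 0.0409). Washout against DMSO called 1, and 0 with eBayes without trend or with no filter, and 0 to 1 leaving out a line. The cause was not tested.

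Without the replicate block, the count was 2 in H2052, with IL1B lost, 1 in H2452, 0 in H28, 1 in MSTO-211H, 0 in the F test and 0 for washout against DMSO. Over the sensitive lines it was 3 with and without the block, and 0 in both fits in MPP89, for sensitive against resistant lines and for washout against palbociclib.

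The following differences changed sign, and none was called in either setting. With median-of-ratios scaling these were IL1R1 in H2052 (0.053), IL18 in H2452 (0.20), IL1RAP and IL18 in MPP89 (-0.0070 and -0.0080) and IL18 for washout against palbociclib (-0.093). With a pseudocount of 1, IL1RL1 for washout against palbociclib was -0.13. Without H2452, IL1A over the sensitive lines was -0.00035. Leaving out a pair gave ranges of -0.53 to 0.036 for IL1R1 and -0.016 to 0.20 for IL1RAP in H2052, -0.24 to 0.22 for IL18 in H2452, -0.26 to 1.34 for IL1A in MSTO-211H, and -0.023 to 0.058 for IL18 and -0.61 to 0.43 for IL33 in MPP89. Leaving out a line gave, for washout against palbociclib, -0.083 to 0.045 for IL1RAP, -0.0047 to 0.092 for IL18 and -0.031 to 0.28 for IL1RL1, and against DMSO -0.046 to 1.18 for IL1A and -0.44 to 0.43 for IL33.

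Median-of-ratios scaling moved the median of all genes over the sensitive lines from -0.11 to 0.058, and the share of calls that were up from 37.3% to 65.7%, with 1759 up and 920 down against 994 and 1669. IL1R1, IL1B and IL18 rose under both, by 0.95, 1.13 and 1.04 with that scaling. Total RNA per cell was not measured. All genes called over the sensitive lines numbered 2663, and 1687 with a pseudocount of 50. They numbered 4292 in H2052 and 3325 in MSTO-211H, and 284 and 994 with no filter. Without the block the F test called 2612 in place of 6601, and washout against DMSO 0 in place of 1026. The test of sensitive against resistant lines called 1668, and 177 to 242 without 1 of the resistant pairs. Low depth limits IL1RN, IL1RL1 outside MSTO-211H, IL33 outside H2052 and MPP89, and IL1A and IL1B in H28.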
